A study of Mus musculus with 11 samples.

Results

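Oxidative phosphorylation genes, which encode the subunits of the respiratory chain and of the ATP synthase, were described in 11 RNA-seq libraries of mouse embryonic forebrain. Members were chosen by name and annotation, with earlier results of these data known. The rule took the Nduf genes with an a, b, c, s or v and a number, Sdha to Sdhd, the Uqcr genes, the Cox4 to Cox8 genes, the Atp5 genes, and the protein-coding genes of the mitochondrial chromosome. This gave 97 of the 46078 gene identifiers in the files, of which 84 were nuclear and 13 mitochondrial. The nuclear members held 37 genes of complex I, 4 of complex II, 8 of complex III, 18 of complex IV and 17 of complex V, and Ndufa4 and Ndufa4l2 were counted with complex I by their symbols. The mitochondrial members held 7 genes of complex I, 1 of complex III, 3 of complex IV and 2 of complex V. Another 4 symbols fit the name pattern but are annotated as processed pseudogenes (Cox6c2, Ndufb4c, Ndufa11b and Ndufs6b) and were left out. The rule also misses subunits with other symbols, such as Cyc1, the cytochrome c1 of complex III, which is given with the electron carriers.

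All embryos were of the CD-1 strain. L3mbtl3, which the study raised or removed, encodes a chromatin protein with MBT repeats, folds that bind methylated lysines. The gain group held 3 libraries of GFP-positive cells. These were sorted at E15.5 from the dorsal telencephalon of wild-type embryos, the part of the forebrain that forms the neocortex, after electroporation in utero at E12.5 with the GFP plasmid pCIG2 carrying L3mbtl3. The GFP control group held 3 libraries of cells that received pCIG2 alone and were sorted in the same way. Whole dorsal telencephalon was dissected at E12.5 for 2 libraries labelled L3mbtl3 -/- (KO), 2 labelled L3mbtl3 +/- (het) and 1 labelled wild-type. The het and wild-type libraries together served as the 3 controls of the KO. The labels do not say whether libraries came from separate or pooled embryos. The p-values therefore speak of the spread among the libraries at hand, and that spread may be technical. By Xist and Y-linked counts the gain and KO groups held both male and female libraries, so each drew on more than 1 embryo. The other groups held male libraries only.

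Library totals ran from 16527551 to 26658718 counts. L3mbtl3 itself was at 1411, 1158 and 824 CPM (counts scaled to a common library total) in the gain libraries, against 51.5, 46.4 and 52.9 CPM in the GFP controls. It was at 74.5 and 77.2 CPM in the libraries labelled KO, against 61.5 and 64.1 CPM in the het and 64.7 CPM in the wild-type library, so it was not lower under the KO label. Gene totals do not show whether part of the gene was deleted. The GFP controls stood further apart than the libraries of any other group: a chi-square of their counts, divided by its degrees of freedom, came to 8.93 to 13.3 for pairs of gain libraries, 27.4 to 86.3 for pairs of GFP controls, 10.35 for the libraries labelled KO and 3.57 for the het libraries. Cortical neuron markers (6 genes) summed to 7530 to 7685 CPM in gain cells, 6413 to 9006 CPM in GFP control cells and 1928 to 2553 CPM in E12.5 tissue, and none was at 0 in any group. Cortical progenitor markers (6 genes) summed to 731 to 812 CPM in gain cells, 411 to 1276 CPM in GFP control cells and 2134 to 2287 CPM in E12.5 tissue. Sorted cells were low in erythroid, endothelial and meningeal markers, while E12.5 tissue held all of these.

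Oxidative phosphorylation makes most of the ATP of many cell types. Complexes I and II pass electrons from NADH and succinate to coenzyme Q, complex III passes them on to cytochrome c, and complex IV hands them to oxygen. Complexes I, III and IV pump protons across the inner mitochondrial membrane, and complex V, the ATP synthase, uses the returning protons to make ATP. Complex II is encoded by nuclear genes alone, whereas the other complexes mix nuclear subunits, made in the cytosol and imported, with subunits encoded by mitochondrial DNA. In the developing cortex, neural progenitors are known to lean on glycolysis and differentiating neurons to turn more to oxidative phosphorylation.

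The mitochondrial mRNAs fell into abundant and nearly uncounted members. The 7 well-counted ones were mt-Nd1, mt-Nd2, mt-Nd4, mt-Nd5 and mt-Nd6 (complex I), mt-Cytb (complex III) and mt-Co1 (complex IV). mt-Cytb, the cytochrome b of complex III, was at 3144, 3385 and 3467 CPM in gain cells and 2980.5, 3217 and 3499 CPM in GFP control cells. In E12.5 tissue mt-Cytb was at 3692 and 3696 CPM in the libraries labelled KO, 3461 and 3594 CPM in the het and 3659 CPM in the wild-type library. Per kilobase, mt-Cytb had the highest counted level of any member in each of the 5 groups. It was at 2913 RPKM (CPM per kilobase of gene length) in gain cells and 2825 RPKM in GFP control cells. In KO, het and wild-type tissue it was at 3229, 3084 and 3198 RPKM. By counts, mt-Nd1 and mt-Co1 came next in that order in every group. The order is one of counts and is not read as an order of abundance. Of the 75-base stretches of mt-Co1, 39.8% also occurred in other annotated genes, against none for mt-Cytb and mt-Nd1. How far this lowered the counts of mt-Co1 was not tested. mt-Nd6, the only mRNA of the light strand, lay far below mt-Cytb, mt-Nd1 and mt-Co1. It was at 13.6 to 17.5 CPM in gain cells and 11.5 to 17.8 CPM in GFP control cells. Over the 5 libraries of E12.5 tissue it was at 37.5 to 42.4 CPM.

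The other 6 mitochondrial mRNAs were nearly absent from the counts, although their products are obligatory subunits of the same complexes. mt-Co2, the subunit that receives electrons from cytochrome c, was at 4.27 to 5.07 CPM in gain cells, 4.32 to 5.68 CPM in GFP control cells and 4.84 to 7.54 CPM in E12.5 tissue. mt-Co3, its partner in complex IV, was at 0.821 to 1.73 CPM across all 11 libraries. mt-Atp6, the proton channel subunit of the ATP synthase, was at 0.766 to 1.68 CPM in 10 libraries and at 11.4 CPM in the library labelled KO replicate 1. mt-Nd3, mt-Nd4l and mt-Atp8 did not pass 0.240 CPM in any library, and a count of 0 allowed up to 3 counts, or 0.113 to 0.182 CPM depending on the library. Floors of this kind cover counting error only.

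Annotated nuclear copies of mitochondrial DNA matched 5 of these 6 almost base for base. Every 75-base window of each member, the length of a read, was searched in all transcripts of the GENCODE M21 annotation (GRCm38). Windows found elsewhere made up 99.9% of mt-Co3, 99.5% of mt-Co2 and of mt-Atp6, 98.7% of mt-Nd4l and 97.8% of mt-Nd3, all in copies on chromosome 1. The same windows made up 61.5% of mt-Nd4 and 39.8% of mt-Co1, 5.71% of mt-Nd2 and 1.66% of mt-Nd5, and none was shared for mt-Nd1, mt-Nd6 or mt-Cytb. mt-Atp8 shared no window with an annotated transcript and was still at or near 0, and unannotated genome sequence was not used here. The copies lay in one block on the minus strand of chromosome 1 (chr1:24611535-24616197), and Gm28437, the copy of mt-Co3, was identical over 783 aligned bases. The first 90 bases of mt-Nd3 (MT:9459-9548, plus strand) and of its copy Gm28438 (chr1:24613030-24613119, minus strand) are shown because they hold the pair's only mismatch in 345 aligned bases. The capital marks it, and it is T3C, counted from 1 at the 5′ end of mt-Nd3.
mt-Nd3: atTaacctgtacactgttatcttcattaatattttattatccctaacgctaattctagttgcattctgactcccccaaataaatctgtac
Gm28438: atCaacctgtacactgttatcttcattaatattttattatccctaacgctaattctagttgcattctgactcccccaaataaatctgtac
A 75-base read that starts past that base is the same in both. The file headers give no option for counting reads that map to several places, and the copies themselves had few counts. Gm28437 had a median of 12 counts over the libraries, with 8 at the lowest and 873 in GFP control replicate 1, where mt-Co3 was at 1.01 CPM. How far the shared sequence lowered the counts was not tested, so the levels of these 6 mRNAs are not read here as their abundance, and those of mt-Nd4 and mt-Co1 are less certain than the rest.

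**Figure D1:**
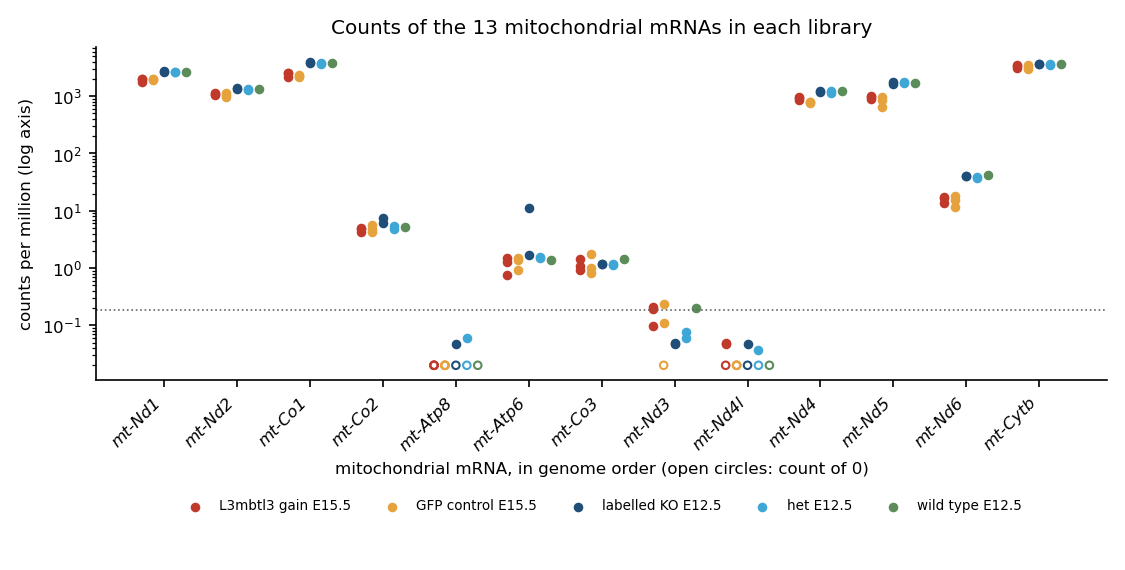
CPM of the 13 mitochondrial mRNAs in each of the 11 libraries, on a log axis and in genome order. Points are libraries coloured by group, open circles at the bottom are counts of 0, and the dotted line is the highest level that a count of 0 allows (0.182 CPM). mt-Cytb, mt-Co1 and mt-Nd1 lie at or above 1803 CPM in every library, and mt-Atp8, mt-Nd3 and mt-Nd4l lie at or below 0.240 CPM.

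Summed over the 13 genes, mitochondrial mRNA took 0.997%, 1.10% and 1.10% of counts in gain cells and 1.00%, 1.02% and 1.03% in GFP control cells. It took 1.48% and 1.44% in the libraries labelled KO, 1.40% and 1.43% in the het and 1.45% in the wild-type library. The E12.5 libraries were thus all above the E15.5 libraries. This sum rests almost wholly on the well-counted mitochondrial mRNAs, since the rest were nearly absent from the counts. It is therefore not read as the share of all mitochondrial mRNA. The 84 nuclear members summed to 6251, 6545 and 6453 CPM in gain cells, against 6307, 7348 and 8294 CPM in GFP control cells. In E12.5 tissue they summed to 7317 and 7278 CPM in the libraries labelled KO, against 7358 and 7367 CPM in the het and 7420 CPM in the wild-type library. The E12.5 libraries spanned a narrow range, whereas the GFP controls reached from the level of the gain libraries to above all others. Because CPM is a share of each library, a sum can move when other genes move. In bulk samples of this kind, fewer cells of a type and less RNA per cell cannot be told apart.

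**Figure D2:**
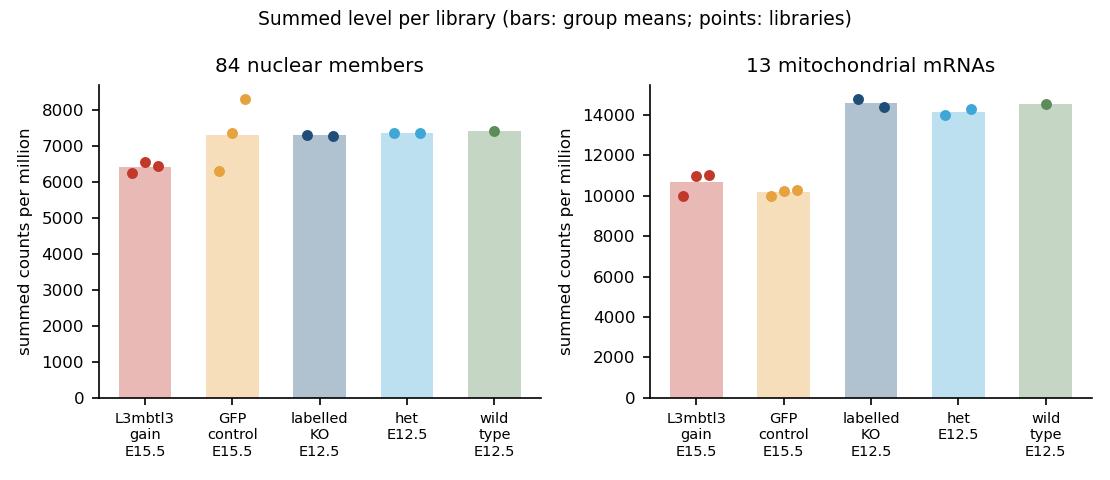
Summed CPM of the 84 nuclear members (left) and the 13 mitochondrial mRNAs (right), with libraries as points and group means as bars. The right panel rests almost wholly on the well-counted mitochondrial mRNAs. The 3 GFP controls run from 6307 to 8294 CPM in the left panel, and the 5 libraries of E12.5 tissue lie above the 6 E15.5 libraries in the right panel.

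Among nuclear members, levels per kilobase differed more between genes than between groups. Atp5b and Atp5a1, the catalytic beta and the alpha subunit of the ATP synthase, were at 229 and 206 RPKM in gain cells, 268 and 231 RPKM in GFP control cells and 278 and 255 RPKM in wild-type tissue. Ndufa4 and Cox6b1 came next in wild-type tissue, at 210 and 189 RPKM. Near the low end, Ndufb2, which encodes a structural subunit of complex I, was at 3.63 RPKM in wild-type tissue. The deposited gene length adds up all annotated exons, which lowers the RPKM of genes with long rare isoforms. 37 nuclear members shared at least one 75-base window with another annotated gene, most of all Atp5g2 (35.8% of windows) and Atp5o (34.2%), so their counts are less certain.

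Complex IV has subunits with tissue-restricted isoforms, and the widely expressed partner was by far the more abundant in all 5 groups. Cox4i1, the common form of subunit 4, was at 184 RPKM in gain cells, 233 RPKM in GFP control cells and 145 RPKM in wild-type tissue. Cox4i2, the form known from lung, had 2 to 13 counts in gain cells, 0 to 3 in GFP control cells and 6 to 21 in E12.5 tissue. Cox6a2, the heart and muscle form of Cox6a, had at most 2 counts in any library, and Cox7a1, the muscle form of Cox7a, at most 12. Cox7b2 had at most 1 count, and Cox8b and Cox8c had 0 in all 11 libraries. Muscle markers (6 genes) summed to at most 2.84 CPM in any library, with Ckm at 0 throughout. Cox6b2, the testis form of Cox6b, and Ndufa4l2, a hypoxia-induced relative of Ndufa4, were low but present in E12.5 tissue, at 5.05 and 1.43 RPKM in the wild-type library. Of the 3 genes that encode the same mature subunit c of the ATP synthase ring, Atp5g3 was the highest in every group, at 64.9 RPKM in gain cells, 67.6 RPKM in GFP control cells and 84.0 RPKM in wild-type tissue. Atp5g2 was at 13.5, 16.4 and 19.5 RPKM and Atp5g1 at 3.88, 4.21 and 5.20 RPKM in the same 3 groups.

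The gain comparison asked which genes respond to raised L3mbtl3 in the sorted cells. In this and the following comparisons CPM values carry edgeR's TMM scaling of the libraries compared, and a gene was called at an adjusted p under 0.05 in edgeR's quasi-likelihood test (two-sided, Benjamini-Hochberg over all genes tested). No oxidative phosphorylation gene was called, of 78 nuclear and 10 mitochondrial members that passed the count filter. In this comparison 0.0136% of 14698 genes were called, 0.0068% higher and 0.0068% lower. At an unadjusted p under 0.05 there were 5 members, against 8.6% of all genes, and DESeq2 called 0 members. Log2 fold changes of the nuclear members nevertheless lay on one side. Their median was -0.19, with 71 of 78 below 0, against a median of -0.03 over all genes tested and 8017 of 14698 below 0.

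The nuclear member with the smallest p in each complex is given here, and the groups overlapped for 2 of the 5. Ndufb7, a structural subunit of complex I, was at 32.4, 35.7 and 38.0 CPM in gain cells, against 38.5, 45.1 and 55.9 CPM in GFP control cells. All 3 gain libraries lay below the 3 controls, though gain replicate 3 and GFP control replicate 1 nearly met. The log2 fold change was -0.40 ± 0.15 (SE, adjusted p = 0.562, edgeR). Cox4i1 was at 295, 269 and 294 CPM in gain cells, against 274, 362 and 453 CPM in GFP control cells, and the groups overlapped (-0.34 ± 0.17, adjusted p = 0.601). Uqcrc1, a core subunit of complex III, was at 163, 168 and 180 CPM in gain cells, against 164, 225 and 254 CPM in GFP control cells, again with overlap (-0.33 ± 0.16, adjusted p = 0.585). Atp5h, a stalk subunit of the ATP synthase, averaged 66.1 ± 2.5 CPM in gain cells and 79.6 ± 8.4 CPM in GFP control cells (SD, n = 3 each) without overlap, and its log2 fold change of -0.27 ± 0.10 had an adjusted p of 0.562. Sdhc, which anchors complex II in the membrane, averaged 79.9 ± 0.32 CPM in gain cells and 91.5 ± 9.0 CPM in GFP control cells (SD, n = 3 each), also without overlap (-0.20 ± 0.09, adjusted p = 0.585). In each of these genes the GFP controls spread more widely than the gain libraries, with GFP control replicate 1 the lowest of the 3.

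Of the 88 tested members, 8 had every gain library below every GFP control (7.53% of all genes did) and 2, Atp5s and mt-Nd4, had every gain library above (9.13%). mt-Nd4 averaged 916 ± 72 CPM in gain cells and 791 ± 16 CPM in GFP control cells (SD, n = 3 each), and its log2 fold change of 0.21 ± 0.09 had an adjusted p of 0.585. mt-Nd5, a proton-pumping subunit of complex I, averaged 966 ± 58 CPM in gain cells and 821 ± 133 CPM in GFP control cells with overlap (0.23 ± 0.13, adjusted p = 0.622). The median of the 10 tested mitochondrial mRNAs was 0.04. This and all later mitochondrial medians include mt-Co2, mt-Co3 and mt-Atp6, whose levels are not read here as abundance. The 13 isoform and subunit c genes that were tested gave adjusted p-values of 0.562 to 0.879.

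The shift of the nuclear members moved with the choice of control library. Without GFP control replicate 3 their median was -0.04, and without GFP control replicate 1 it was -0.29. In the fit without replicate 1, Ndufs8, an iron-sulfur subunit of complex I, and Uqcrc1 fell (log2 fold changes of -0.62 and -0.49, adjusted p = 0.0496 and 0.0438, edgeR). On library totals, cortical progenitor markers summed to 812, 787 and 731 CPM in the gain libraries, and to 1276, 935 and 411 CPM in GFP control replicates 1, 2 and 3. Neuron markers summed to 7668, 7530 and 7685 CPM in the gain libraries and to 6413, 7664 and 9006 CPM in the GFP controls. Ventral telencephalon markers (6 genes) summed to 194, 184 and 10.7 CPM in gain replicates 1, 2 and 3. They summed to 748, 232 and 12.46 CPM in GFP control replicates 1, 2 and 3, so the groups overlapped. Microglia markers (6 genes) summed to 4.95 to 6.89 CPM in gain cells and 13.2 to 30.2 CPM in GFP control cells, and endothelial markers (6 genes) to 2.58 to 4.61 CPM in gain cells and 9.78 to 11.8 CPM in GFP control cells. Both sums were lower in every gain library than in every control, with list medians of -2.28 and -1.58 on the log2 scale, and none of these 12 genes was called. The part of these differences in the result was not tested. Nuclear members are also short, with a median length of 1475 bases against 3733 over all genes tested, and across the 14698 genes log2 fold change and length had a Spearman rho of 0.263. With a length offset in the fit the nuclear median was -0.09 and the mitochondrial median 0.16. By Xist and Y-linked counts, gain replicates 1 and 3 were female and the other 4 libraries male, and a sex term gave a nuclear median of -0.16. As the GFP controls were all male, the gain effect in that fit rests on gain replicate 2 alone against them.

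The loss comparison asked the same of tissue labelled as lacking L3mbtl3. Again no member was called, of 79 nuclear and 10 mitochondrial ones tested, although 7.41% of 16361 genes were, 3.63% higher and 3.78% lower. At an unadjusted p under 0.05 there were 5 members, against 22.0% of all genes. DESeq2 also called 0. The members lay close to the controls: the median log2 fold change was -0.01 for the nuclear and 0.05 for the mitochondrial members, against 0.00 over all genes.

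The member with the smallest p was Uqcrc1, at 148 and 167 CPM in the libraries labelled KO, against 144 and 137 CPM in the het and 137 CPM in the wild-type library. Both KO libraries lay above the 3 controls, by little for replicate 1, and the log2 fold change of 0.18 ± 0.05 had an adjusted p of 0.0694. It was called without KO replicate 1 (0.26, adjusted p = 0.00412) and with no count filter (0.18, adjusted p = 0.00175). Atp5f1, a subunit of the stalk that holds the ATP synthase together, was at 187.4 and 187.2 CPM in the libraries labelled KO, against 198 and 204 CPM in the het and 205 CPM in the wild-type library (-0.11 ± 0.04, adjusted p = 0.0876). Ndufc2, a membrane subunit of complex I, was at 71.3 and 72.6 CPM in the libraries labelled KO, against 79.9 and 77.3 CPM in the het and 82.0 CPM in the wild-type library (-0.15 ± 0.05, adjusted p = 0.114). Neither gene's groups overlapped. Both KO libraries lay below every control in 13 members (19.5% of all genes) and above every control in 10 (19.1%). Cox7a2l, a factor that joins complexes III and IV, averaged 68.0 ± 1.4 CPM (SD, n = 2) in the libraries labelled KO and 72.5 ± 2.6 CPM (SD, n = 3) in the controls, with a log2 fold change of -0.09 ± 0.05 (adjusted p = 0.361). In complex II, Sdhc was at 105.3 and 105.7 CPM in the libraries labelled KO, against 105.2 and 100.5 CPM in the het and 104.5 CPM in the wild-type library (0.03 ± 0.05, adjusted p = 0.783).

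Of the mitochondrial mRNAs, mt-Co2 was at 5.98 and 7.60 CPM in the libraries labelled KO, against 5.36 and 4.83 CPM in the het and 5.29 CPM in the wild-type library (0.39 ± 0.15, adjusted p = 0.145). mt-Atp6 was at 11.4 CPM in KO replicate 1 and 1.69 CPM in KO replicate 2, against 1.50 and 1.57 CPM in the het and 1.37 CPM in the wild-type library. Its log2 fold change of 2.13 ± 0.99 (adjusted p = 0.344) rested on that 1 library: without KO replicate 2 it was 2.94 (adjusted p = 2.87e-06), and with a sex term, which splits the 2 KO libraries, it was 2.94 as well (adjusted p = 5.11e-06). Both genes share nearly all of their sequence with the copies on chromosome 1. The 7 well-counted mitochondrial mRNAs had log2 fold changes between -0.03 and 0.08, with the largest for mt-Nd2 (0.08 ± 0.04, adjusted p = 0.248). Choroid plexus markers fell in the libraries labelled KO (6 of 6), with sums of 230 and 216 CPM against 542, 624 and 635 CPM in the controls. Of the ventral markers 2 of 6 rose and of the neuron markers 1 of 6 fell. Among the 6 progenitor markers 1 rose and 1 fell. The part of these differences in the members' values was not tested.

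**Figure D3:**
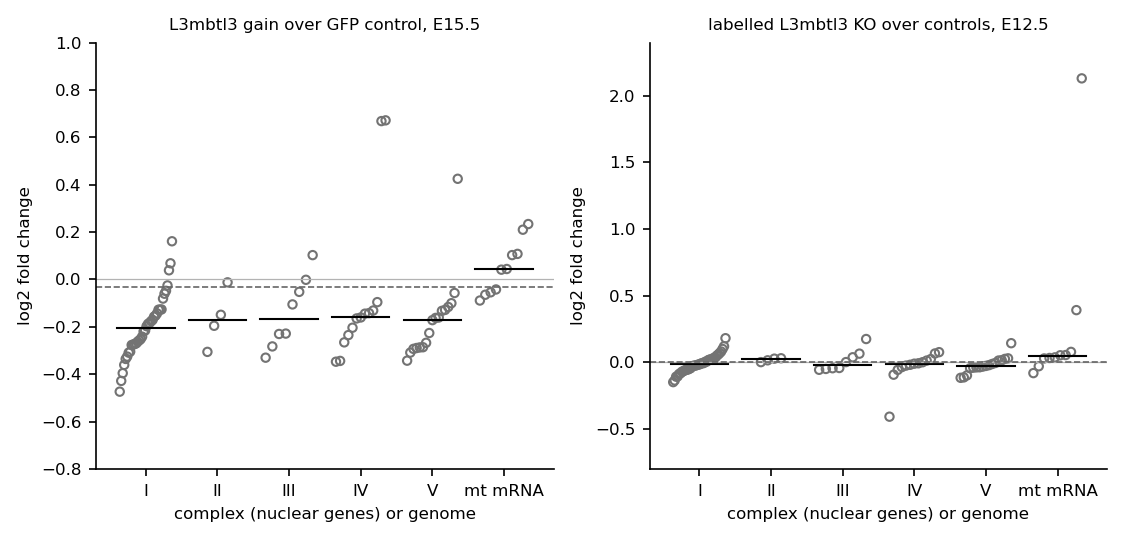
Log2 fold changes of the tested members for L3mbtl3 gain over GFP control (left) and labelled KO over controls (right), by complex for nuclear genes and together for mitochondrial mRNAs. Circles are genes, none of them called, bars are medians and the dashed line is the median of all genes tested. The mitochondrial medians include mt-Co2, mt-Co3 and mt-Atp6. The left panel's nuclear medians lie between -0.21 and -0.16, and in the right panel the point at 2.13 is mt-Atp6.

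The GFP control cells of E15.5 were then set against the control tissue of E12.5, to describe how the members differ between the study's materials. The labels name no such contrast, and age, sorting, electroporation and the het genotype of 2 of the 3 tissue controls cannot be told apart. In it 62.3% of 15968 genes were called, 31.1% higher and 31.3% lower in the E15.5 cells. Of 78 nuclear members tested, 19 rose and 7 fell, and of 10 mitochondrial mRNAs 0 rose and 4 fell. Every E15.5 library lay above every E12.5 control in 25 members (35.0% of all genes) and below in 12 (37.5%). The median log2 fold change was 0.21 for nuclear members and -0.09 for mitochondrial ones, against -0.02 over all genes. The mitochondrial median includes mt-Co2, mt-Co3 and mt-Atp6 (0.20, 0.22 and 0.04), whose levels are not read here as abundance. The well-counted mitochondrial mRNAs ran from -1.15 for mt-Nd6 to 0.13 for mt-Cytb, and only mt-Cytb lay above 0. The nuclear and mitochondrial medians moved with the library and the scaling. Without GFP control replicate 3 they were 0.08 for nuclear and -0.19 for mitochondrial members, and without replicate 1 they were 0.31 and -0.03. With no count filter the mitochondrial median was -0.18. E15.5 cells had higher neuron markers (6 of 6 rose) and lower progenitor markers (4 of 6 fell), and erythroid (7 of 7), endothelial (6 of 6) and meningeal markers (6 of 6) fell. Erythroid markers summed to 8.92 to 52.5 CPM in GFP control cells and 2448 to 3212 CPM in the E12.5 controls. Choroid plexus markers also fell (6 of 6), with sums of 8.51 to 19.8 CPM in GFP control cells and 542 to 635 CPM in the E12.5 controls. Ventral markers rose in 2 of 6 and microglia markers fell in 3 of 6. Of the dissociation and immediate early response genes 5 of 8 rose (median 1.24), with sums of 157 to 254 CPM in GFP control cells and 145 to 161 CPM in the E12.5 controls. The part of these differences in the members' values was not tested.

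In complex I, 10 of 37 nuclear members tested rose and 2 fell, beside 31.1% and 31.3% of all genes. Ndufb8, a membrane-arm subunit, was at 39.0, 44.7 and 69.1 CPM in GFP control cells, against 28.8, 28.0 and 28.1 CPM in E12.5 controls. All E15.5 libraries lay above the tissue, with replicate 3 the highest, and the log2 fold change was 0.85 ± 0.21 (adjusted p = 0.0123, edgeR). Ndufa8, another accessory subunit, was at 44.3, 70.3 and 80.6 CPM in GFP control cells, against 35.3, 40.5 and 34.6 CPM in E12.5 controls (0.82 ± 0.22, adjusted p = 0.0152). Other risers included Ndufs3 and Ndufs7, core subunits of the electron-transfer arm, Ndufv1, which binds NADH, and Ndufa11, Ndufb9, Ndufb10 and Ndufc2. Their log2 fold changes ran from 0.30 for Ndufc2 to 0.80 for Ndufs3. Ndufs1, the largest iron-sulfur subunit of the same arm, went the other way, at 111, 107 and 97.2 CPM in GFP control cells, against 126, 127 and 127 CPM in E12.5 controls (-0.27 ± 0.08, adjusted p = 0.0206). Ndufa4l2 fell to 0.254, 0.419 and 0.332 CPM in GFP control cells, against 1.75, 1.93 and 1.25 CPM in E12.5 controls (-2.28 ± 0.37, adjusted p = 0.0018).

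Complex II, the only complex that is also an enzyme of the TCA cycle, had 0 of 4 tested members higher and 2 lower. Of all genes, 31.1% were higher and 31.3% lower. Sdhd, a membrane anchor, was at 48.4, 54.9 and 56.7 CPM in GFP control cells, against 81.2, 78.0 and 86.7 CPM in E12.5 controls. The groups were well apart and the log2 fold change was -0.62 ± 0.09 (adjusted p = 0.00129). Sdha, the flavoprotein that oxidises succinate, was at 178, 187 and 179 CPM in GFP control cells, against 234, 228 and 229 CPM in E12.5 controls (-0.35 ± 0.06, adjusted p = 0.0035). Both genes varied little within either group. Sdhb, the iron-sulfur subunit that sits between them, averaged 127 ± 31 CPM in GFP control cells and 100.2 ± 2.3 CPM in E12.5 controls (SD, n = 3 each; 0.34 ± 0.17, adjusted p = 0.116).

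In complex III, Uqcrc1 was at 177, 250 and 281 CPM in GFP control cells, against 132, 125 and 125 CPM in E12.5 controls, with no overlap (0.89 ± 0.17, adjusted p = 0.00351). Uqcrq, a small subunit, rose by 0.57 ± 0.20 (adjusted p = 0.0408). Uqcrb, which binds near the coenzyme Q site, was at 32.6, 33.9 and 33.6 CPM in GFP control cells, against 42.1, 39.2 and 42.2 CPM in E12.5 controls (-0.30 ± 0.08, adjusted p = 0.0179).

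In complex IV, 5 of 12 nuclear members tested rose and 1 fell, beside 31.1% and 31.3% of all genes. Cox4i1 was at 297, 403 and 500 CPM in GFP control cells, against 210, 206 and 204 CPM in E12.5 controls, the largest rise among the called members (0.95 ± 0.18, adjusted p = 0.00371). Cox6a1 rose by 0.78 ± 0.20 (adjusted p = 0.0121), Cox5a, the partner of Cox4i1 in assembly, by 0.76, Cox7a2l by 0.60 ± 0.12 (adjusted p = 0.00424) and Cox7a2 by 0.41 ± 0.15 (adjusted p = 0.0487). The common forms Cox6b1 (0.53 ± 0.21, adjusted p = 0.0659), Cox7b (0.57 ± 0.28, adjusted p = 0.124), Cox8a (0.01 ± 0.11) and Ndufa4 (0.17 ± 0.14) did not pass. Cox6b2 fell to 0.761, 0.180 and 0.332 CPM in GFP control cells, against 4.69, 3.47 and 5.09 CPM in E12.5 controls (-3.33 ± 0.47, adjusted p = 0.0011), so in the same subunit the common form was not called and the low testis form fell.

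Complex V had Atp5d, the delta subunit of the rotor, at 88.1, 107 and 131 CPM in GFP control cells, against 69.0, 65.0 and 64.3 CPM in E12.5 controls (0.72 ± 0.15, adjusted p = 0.00519), and Atp5l, a membrane subunit, rose by 0.65 ± 0.19 (adjusted p = 0.0226). Atp5s, a coupling factor by its older name, was at 3.40, 4.37 and 3.54 CPM in GFP control cells, against 7.16, 6.28 and 7.26 CPM in E12.5 controls (-0.87 ± 0.19, adjusted p = 0.00628). The abundant catalytic genes did not pass, with Atp5b at 0.22 ± 0.14 (adjusted p = 0.198) and Atp5a1 at 0.13 ± 0.12 (adjusted p = 0.347). The 3 subunit c genes lay between -0.07 and 0.01.

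**Figure D4:**
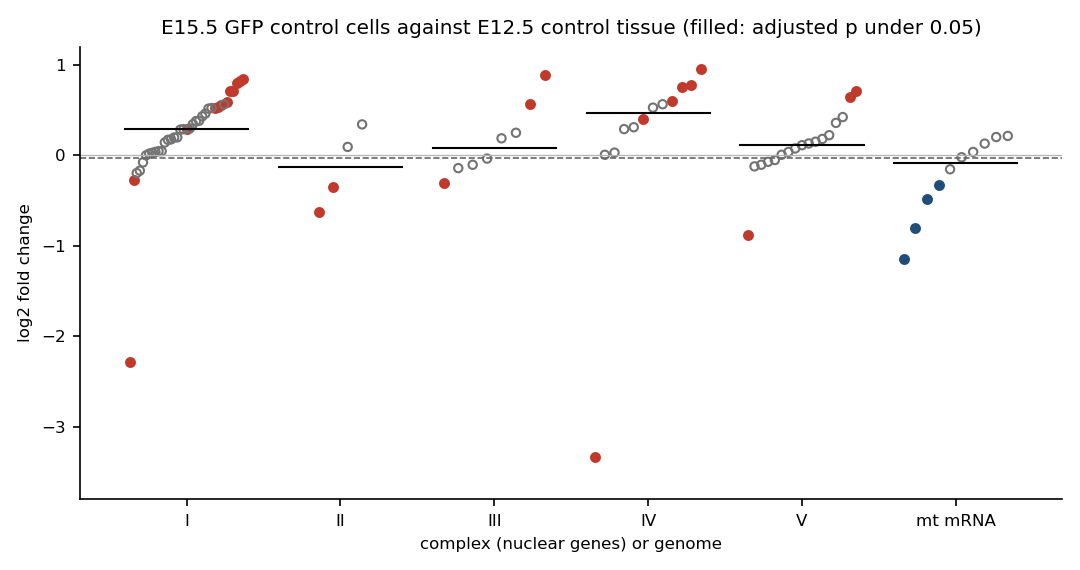
Log2 fold changes of the tested members in E15.5 GFP control cells over E12.5 controls, by complex for nuclear genes and together for mitochondrial mRNAs. Filled circles passed an adjusted p of 0.05, bars are medians and the dashed line is the median of all genes tested. The mitochondrial median includes mt-Co2, mt-Co3 and mt-Atp6. Complex I and IV medians lie highest (0.30 and 0.47), complex II has 2 filled circles below 0 and none above, and the lowest point is Cox6b2 at -3.33.

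Among the mitochondrial mRNAs the 4 called ones all fell. mt-Nd6 was at 18.8, 16.8 and 13.2 CPM in GFP control cells, against 35.6, 34.1 and 38.5 CPM in E12.5 controls (-1.15 ± 0.15, adjusted p = 0.000813). How far poly(A) selection affected the counts of mt-Nd6 was not tested. mt-Nd5, encoded opposite and next to mt-Nd6, was at 1029, 923 and 756 CPM in GFP control cells, against 1552, 1598 and 1575 CPM in E12.5 controls (-0.80 ± 0.12, adjusted p = 0.00141). mt-Co1, the catalytic subunit of complex IV, averaged 2473 ± 131 CPM in GFP control cells and 3440 ± 68 CPM in E12.5 controls (SD, n = 3 each; -0.48 ± 0.08, adjusted p = 0.00206), and mt-Nd4 fell by 0.33 (adjusted p = 0.00682). Their well-counted neighbours on the same genome were not called: mt-Nd1 was at -0.15 ± 0.08 (adjusted p = 0.123), mt-Nd2 at -0.02 ± 0.09 and mt-Cytb at 0.13 ± 0.11 (adjusted p = 0.315). The 2 mitochondrial rRNAs, which carry at most short A tails, so that poly(A) selection affects their counts, rose, with mt-Rnr1 at 636 ± 92 CPM in GFP control cells and 197 ± 6 CPM in E12.5 controls (SD, n = 3 each; 1.69 ± 0.12) and mt-Rnr2 by 0.87 ± 0.07 on the log2 scale.

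**Figure D5:**
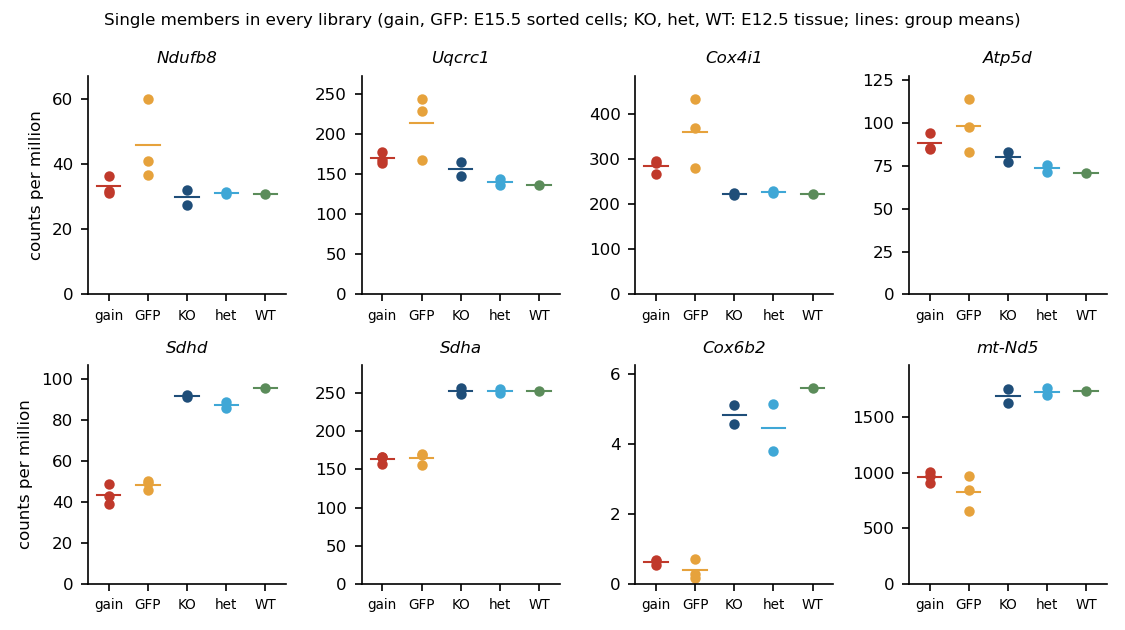
CPM on library totals of 8 members in every library, with points for libraries and lines for group means. GFP control libraries spread widely for Ndufb8, Uqcrc1, Cox4i1 and Atp5d, whereas Sdhd, Sdha, Cox6b2 and mt-Nd5 lie lower in all 6 E15.5 libraries than in all 5 of E12.5.

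Directions in this contrast depended on scaling. TMM scaling put the median of all genes at -0.02, whereas scaling by library totals alone put it at -0.30, where 9 members rose and 25 fell and the nuclear and mitochondrial medians were -0.07 and -0.36. Relative to the all-gene median, 61 of 78 nuclear members lay above it with TMM, and their median was 0.24 above it. A change of scaling moves all genes by nearly the same amount, so such relative values stay almost the same by construction. Ndufb8, Uqcrc1, Cox4i1, Cox6a1, Atp5d and Cox7a2l rose, and Sdhd, Sdha, Cox6b2, Atp5s, Ndufa4l2, mt-Nd6, mt-Nd5, mt-Co1 and mt-Nd4 fell, under all 15 alternatives tried. Ndufs3 and Cox5a also rose under all 15. Of the other called genes described, Cox7a2 and Ndufc2 missed the threshold in 11 of the 15 each, Uqcrq in 7, Ndufb9 in 6, Ndufs1, Atp5l, Ndufa11 and Ndufb10 in 5 each, Ndufa8 and Ndufs7 in 3 each, Uqcrb in 2 and Ndufv1 in 1. Many other calls depended on single libraries: 45 members rose without replicate 1 and 10 without replicate 2, and leaving out any 1 of the E12.5 controls gave 10 or 11.

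Promoters of some nuclear members hold letters that match the motifs of NRF1, GABPA (of the ETS family) and YY1. These factors are known to drive many respiratory genes. The RefSeq promoter table (GRCm38.p6) held 68 of the 84 nuclear members, with 250 bases before to 50 after each gene's start. On either strand, the NRF1 motif was in 17 of 68 members (25%) and 7.17% of 17492 coding genes. The letters CCGGAAG, for the ETS family, were in 16 (23.5%) and 12.9% of coding genes, and the YY1 letters AAGATGGC in 10 (14.7%) and 3.57%. These shares are descriptions of letters, and no test was made. The 100 bases before the start are shown for Sdha and Sdhd, which fell in E15.5 cells, and for Ndufa8, which rose, since all 3 hold the NRF1 motif, in genes called in opposite directions. Capitals mark the NRF1 motif and, in Sdhd, the ETS letters on the other strand.
Sdha (chr13:74350241-74350340, minus strand): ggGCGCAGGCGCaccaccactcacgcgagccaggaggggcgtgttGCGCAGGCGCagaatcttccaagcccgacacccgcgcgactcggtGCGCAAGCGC
Sdhd (chr9:50603850-50603949, minus strand): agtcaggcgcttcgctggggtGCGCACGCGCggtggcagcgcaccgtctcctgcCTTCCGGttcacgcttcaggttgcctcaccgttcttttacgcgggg
Ndufa8 (chr2:36049339-36049438, minus strand): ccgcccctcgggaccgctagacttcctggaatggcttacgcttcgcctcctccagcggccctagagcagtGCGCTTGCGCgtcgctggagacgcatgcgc

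Genes that build and serve the complexes were read from fixed lists. In the gain comparison no gene was called in any of the 16 lists, and list medians ran from -0.15 for the adenine nucleotide and phosphate carriers to 0.17 for the mitochondrial rRNAs, with the mitochondrial ribosomal proteins (77 tested) at -0.12 and the cytosolic ribosomal proteins (80 tested) at -0.14. The smallest adjusted p was 0.491, for Mrpl28, a mitochondrial ribosomal protein (-0.50 ± 0.14). In the loss comparison 1 of the 316 list genes tested rose and 2 fell, beside 3.63% and 3.78% of all genes. Grsf1, which binds mitochondrial RNA, averaged 193 ± 5 CPM (SD, n = 2) in the libraries labelled KO and 168 ± 3 CPM (SD, n = 3) in the controls (0.20 ± 0.04, adjusted p = 0.00801). Idh2, a mitochondrial isocitrate dehydrogenase, fell by 0.16 (adjusted p = 0.025) and Pdk1, a kinase that switches off pyruvate dehydrogenase, by 0.30 (adjusted p = 0.0161). The other 13 lists had none called.

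In the E15.5 against E12.5 contrast the lists split. Coenzyme Q synthesis had 6 of 13 tested members higher and 0 lower, led by Coq10a (1.23 ± 0.15). Pyruvate entry had 7 of 12 higher and 3 lower. Here Pdp1, which switches pyruvate dehydrogenase on, averaged 96.5 ± 10.7 CPM in GFP control cells and 33.4 ± 2.0 CPM in E12.5 controls (SD, n = 3 each; 1.53 ± 0.11), and Pdk3, which switches it off, averaged 11.5 ± 2.9 CPM in GFP control cells and 45.6 ± 0.93 CPM in E12.5 controls (SD, n = 3 each; -1.98 ± 0.19). Pdk2, a kinase of the same family, rose (1.05 ± 0.12) and Pdk1 fell (-0.78 ± 0.22). Among electron carriers, Cyc1, the cytochrome c1 of complex III, was at 216 ± 52 CPM in GFP control cells and 86.4 ± 2.3 CPM in E12.5 controls (SD, n = 3 each; 1.32 ± 0.18), while Etfa, which feeds electrons from fatty acid oxidation, fell by 1.23. Regulators of mitochondrial gene expression had 3 of 18 higher and 7 lower. Esrra, an orphan nuclear receptor that activates respiratory genes, was at 73.9 ± 14 CPM in GFP control cells and 18.4 ± 1.7 CPM in E12.5 controls (SD, n = 3 each; 2.01 ± 0.16), and Polrmt, the mitochondrial RNA polymerase, rose by 0.89 ± 0.08. Tfb1m, a methyltransferase of mitochondrial rRNA, fell by 1.33, and Ppargc1b, a coactivator of Esrra, was at 0.127 ± 0.111 CPM in GFP control cells and 1.00 ± 0.07 CPM in E12.5 controls (SD, n = 3 each; -2.91 ± 0.65).

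Assembly factors were called in both directions, with 7 of 20 higher and 5 lower for complex I, 2 of 4 higher and 1 lower for complex II, 3 of 6 and 0 for complex III, 9 of 25 and 3 for complex IV, and 1 of 6 and 0 for complex V. Cox19, a copper-handling factor of complex IV, rose by 1.30 ± 0.13, and Nubpl, which inserts iron-sulfur clusters into complex I, fell by 1.15. Atpif1, the inhibitor of ATP synthase reversal, averaged 185 ± 56 CPM in GFP control cells and 82.0 ± 3.3 CPM in E12.5 controls (SD, n = 3 each; 1.17 ± 0.21). The TCA cycle list had 4 of 14 higher and 5 lower. Mdh2, the mitochondrial malate dehydrogenase, rose by 0.63 ± 0.15, and Suclg2, the GTP-forming subunit of succinyl-CoA ligase, fell to 5.38 ± 2.60 CPM in GFP control cells, against 43.9 ± 1.2 CPM in E12.5 controls (SD, n = 3 each; -3.03 ± 0.36). The adenine nucleotide carriers moved apart, with Slc25a4 higher (0.81 ± 0.18) and Slc25a5 lower (-0.59 ± 0.06). Mitochondrial ribosomal proteins had 17 of 77 higher and 14 lower, mitochondrial mRNA processing 3 of 17 and 4, and mitochondrial DNA replication 1 of 8 and 3. Cytosolic ribosomal proteins had 2 of 80 higher and 21 lower. Of all genes tested, 31.1% were called higher and 31.3% lower, and no list was tested against that background. All genes given as higher or lower in this contrast had an adjusted p under 0.05 in edgeR's test.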

How the data were processed

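Stranded poly(A) libraries were sequenced from one end to 75 bases, per the labels' protocols. The deposited values are raw counts of reads per gene; featureCounts 2.0.1 made them with its reversely stranded setting (2), per the file headers. HISAT2 2.2.1 and the build GRCm38 are named in the submitters' processing notes, and the annotation release is not given in the sources used here. Symbols were found for 45143 of 46078 identifiers, and 0 entries named no gene. Counts were tested on the whole table by edgeR 4.0.16 under R 4.3.3, after filterByExpr and TMM scaling, with its robust quasi-likelihood test. A standard error is the absolute log2 fold change divided by the square root of F. DESeq2 1.42.0, other scalings and filters, a length offset, a sex term, a replicate block and single libraries left out were alternatives. The fits were tested on simulated data. Members, lists and tests were chosen with earlier results of these data known. Single genes named were the mitochondrial mRNAs, per complex and direction the 2 called members with the largest fold change and a mean log2 CPM of at least 1 (otherwise the smallest p), isoform genes, and up to 2 called genes per direction of each list (otherwise the smallest p). Ndufs8, Atp5s in the gain comparison, further called members and the highest or lowest levels were named after their values were seen. Group means of CPM and RPKM in the level paragraphs use library totals. Replicate numbers were not used to pair the samples in the main fits. Some single-gene results are not reported here.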

Additional observations from a re-analysis of the deposited data

How the results depend on the processing

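Over the alternatives, the count of called members kept within 1.5 times of its value, or stayed at 0, in 33 of 34 cases for gain, 28 of 32 for loss and 24 of 32 for the E15.5 against E12.5 (stage) contrast (rises and falls counted apart). Exceptions were, for gain, falls of 0 to 2 over the fits that left out 1 library each. For loss they were 1 rise with no count filter, 1 with a sex term and 0 to 2 over the fits that left out 1 library. For the stage contrast they were 30 rises with all 11 libraries in 1 fit, 9 rises and 25 falls with library totals only, and 10 to 45 rises over the fits that left out 1 library each. Leaving out the wild-type library is the same as controls of het only. Where an arm is left with 1 library, that library is assumed to vary like the others. With all genes counted, gain calls were 2 in edgeR and 122 in DESeq2. Under TMM-scaled CPM the nuclear sums averaged 6962 in gain cells, 6622 in KO, 6667 in het and 6685 in wild-type tissue. Gain cells thus lay above the E12.5 groups, whereas on library totals they lay below them. The nuclear mean of the GFP controls moved by less than its SD. The mitochondrial sums averaged 11572 in gain cells, 11067 in GFP control cells, 13246 in KO, 12833 in het and 13088 in wild-type tissue. Counting the 4 annotated pseudogenes, chosen after seeing the data, changed no count of calls.

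The replicate numbers were not used to pair the samples in the main fits. Same-numbered gain and GFP libraries correlated at 0.18, 0.01 and 0.26, and differently numbered ones at -0.27 to 0.12. Whether the numbers mark a shared batch was not tested. With the number as a block, gain and loss calls of members stayed at 0, and the stage contrast gave 17 rises and 13 falls, with medians of 0.056 for nuclear and -0.20 for mitochondrial members. The block also put mt-Atp6 at -0.22 and mt-Co3 at -0.17 in the stage contrast.

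No called member changed sign under the alternatives tried. Uncalled nuclear members did: in the stage contrast 24 of 78 with library totals only, 16 with the replicate block and 1 to 13 over the fits that left out 1 library. Uncalled mitochondrial mRNAs did too. In the gain comparison a length offset gave mt-Nd1 0.079, mt-Co2 0.064, mt-Atp6 0.057 and mt-Co3 0.087, and a sex term gave mt-Nd1 0.010. Fits that left out 1 library ranged from -0.069 to 0.012 for mt-Nd1, -0.020 to 0.079 for mt-Nd2, -0.16 to 0.086 for mt-Co2, -0.30 to 0.15 for mt-Atp6, -0.27 to 0.36 for mt-Co3, -0.029 to 0.24 for mt-Nd6 and -0.022 to 0.14 for mt-Cytb. In the loss comparison a sex term gave mt-Nd5 0.016, and fits without 1 library ranged from -0.071 to 0.015 for mt-Nd5 and -0.14 to 0.024 for mt-Co3. In the stage contrast library totals gave mt-Co2 -0.072, mt-Atp6 -0.24, mt-Co3 -0.065 and mt-Cytb -0.14, and fits without 1 library ranged from -0.057 to 0.051 for mt-Nd2, -0.14 to 0.24 for mt-Atp6 and -0.20 to 0.43 for mt-Co3. The cause was not tested. mt-Co2, mt-Co3 and mt-Atp6 had few counts, which limits the precision of their fold changes.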
